A study of Mus musculus with 9 samples.

Results

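Microglia are the resident macrophages of the brain, and the wild type arrays of a mouse study were read here on their own, as a picture of the transcriptome of these cells in adult mice without the disease background of the study. They are 3 of the 9 one-colour arrays of the series and were chosen by their titles, which name them wild type replicates 1 to 3. They hold RNA of microglia sorted by FACS from the brains of female C57Bl/6 mice aged 24 to 28 weeks. The mice are labelled wild type and, like all mice of the study, had been given tamoxifen (8 mg, at an age of 6 weeks), so the baseline is that of tamoxifen-treated animals. The other arrays came from FAD mice (Hdac1/2fl/fl in a familial Alzheimer's disease background) and from FAD DKO mice (Hdac1/2fl/flCx3cr1CreERT2 in the same background), 3 each, with the same sex, strain, age and tamoxifen. The Cre of FAD DKO is driven from the Cx3cr1 locus and so acts in any cell that uses that gene. These 6 arrays serve only to show whether the genes that spread in wild type also spread inside another group, and no genotypes are compared. The labels name neither the surface markers of the sort nor whether each array is 1 mouse or a pool, so the spread between the arrays may be biological or technical.

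Microglia enter the brain early in development, renew themselves there, and depend on the receptor Csf1r and on TGF-beta for survival and identity. In the healthy brain their processes sense nucleotides, fractalkine and complement-tagged synapses, and their lysosomes break down what they engulf. A homeostatic state with high P2ry12, Tmem119 and Cx3cr1 is the textbook mark of such cells, and interferon-driven and proliferating states are usually rare. Dissociation and sorting of brain tissue are known to induce immediate early and heat shock genes in microglia.

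Levels are log2 signals of probe sets, so a step of 1 is a 2-fold difference in signal. A gene was taken as 1 symbol with its brightest probe set over the 3 arrays, which gave 22180 genes with a median level of 5.46. Arrays give a signal for genes that are silent, so the 1407 genes of olfactory, vomeronasal and trace amine receptors, which serve smell and are not known to be used by microglia, set a reference. Their median level was 3.01 and their 95th percentile, called the ceiling here, was 5.52. Of all genes, 10773 (48.6%) lay above that ceiling, and 6163 above the stricter 99th percentile of 6.72. The highest 5% of genes, 1109 in number, began at 8.73. Probes differ in their affinity, so a rank says where the signal of a gene's probes lies and not how many transcripts there are per cell. The 68 genes of ribosomal proteins, most of which are held in 1 copy per ribosome, spanned 1.87 to 11.97. Only 57 of them lay above the ceiling. What part of this span is due to probe affinity was not tested. A gene below the ceiling is not shown to be silent.

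**Figure D1:**
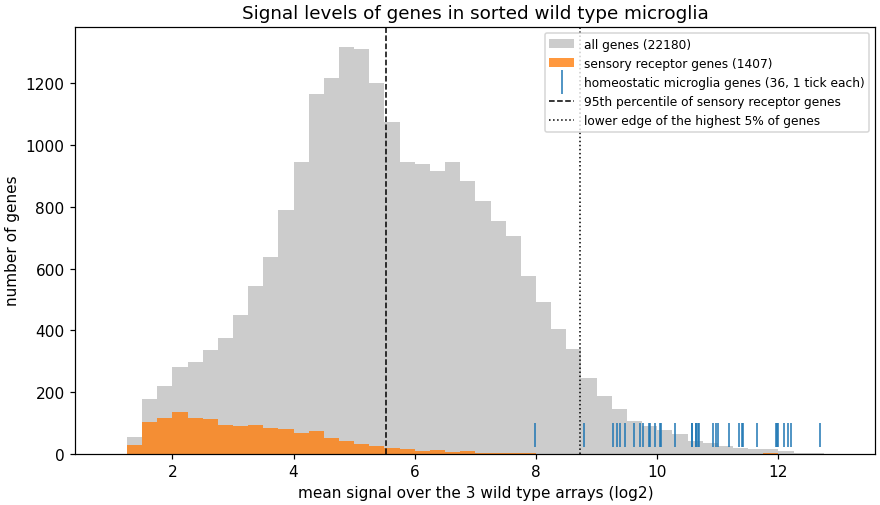
Number of genes (y axis) at each mean log2 signal over the 3 wild type arrays (x axis, bins of 0.25). Grey bars are all 22180 genes, orange bars the 1407 sensory receptor genes, and blue ticks the 36 homeostatic microglia genes; the dashed line is the ceiling at 5.52 and the dotted line the edge of the highest 5% at 8.73. The orange genes gather at the left, and the blue ticks all lie to the right of the dashed line.

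The arrays carried the signal of the labelled cell type. All 36 measured genes of the homeostatic microglia list lay above the ceiling and 35 of them in the highest 5%, with a list median of 10.64. Cx3cr1, the fractalkine receptor, read 12.13, 12.27 and 12.22 in replicates 1, 2 and 3. P2ry12, the receptor that guides processes to released ADP, read 12.08, 12.03 and 12.16. Csf1r, the receptor for the survival signals CSF1 and IL-34, read 11.98, 11.97 and 12.03. These 3 genes stood among the 15 highest of all genes, and their arrays differed by at most 0.14. Tmem119, a surface protein used to tell microglia from other macrophages, read lower at 9.45, 9.55 and 9.41. Sall3, a zinc finger factor, was the lowest of the list at 7.94, 8.08 and 7.92 and the 1 member outside the highest 5%. Xist, which is transcribed from the inactive X chromosome of females, read 11.72 on average, and the 4 measured Y-linked genes lay between 2.49 and 3.40, below the ceiling, so these genes did not go against the label female.

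Most marker lists of other cells had medians below the ceiling, with single members far above it. The exceptions were monocytes, with a median of 5.88 and 9 of 13 genes above the ceiling (69.2%), and neutrophils, with 5.61 and 10 of 18 (55.6%). Of all genes 48.6% lay above the ceiling, and their median of 5.46 was itself below it. A list median below the ceiling therefore does not show that a cell type was absent, and the neutrophil share was near that of all genes. The 19 neuron markers had a median of 4.87 and 3 of them lay above the ceiling, none in the highest 5%. The 17 markers of the oligodendrocyte lineage had a median of 5.32 with 5 above the ceiling, and the 19 of endothelial and mural cells 4.80 with 6 above it. Astrocyte markers had a median of 5.17, with Glul, glutamine synthetase, as the exception at 11.42, 11.48 and 11.66, and Slc1a3, a glutamate transporter, at 7.49. Gfap and Aldh1l1, which define astrocytes, were below the ceiling at 5.03 and 5.06. Of the markers of perivascular and border macrophages (median 5.28), Stab1, a scavenger receptor, was high at 9.20, 9.31 and 9.31, while Mrc1 stood at 6.24 and Lyve1 at 5.14. B cell markers had a median of 4.89, with Ighm, the immunoglobulin mu constant region, at 10.34, 10.17 and 10.19 although the B cell genes Cd79a and Ms4a1 were at 4.76 and 3.27. T and NK cell markers had a median of 4.48, with the interleukin-7 receptor Il7r at 8.70, 8.03 and 8.04 beside Cd3e at 3.95. Ttr, transthyretin, which choroid plexus makes in bulk, was at 10.37, 9.98 and 10.15 while the choroid plexus gene Folr1 was at 5.12. Only 3 of 11 red cell genes were measured. Which cells gave Glul, Stab1, Ighm, Il7r and Ttr was not tested.

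**Figure D2:**
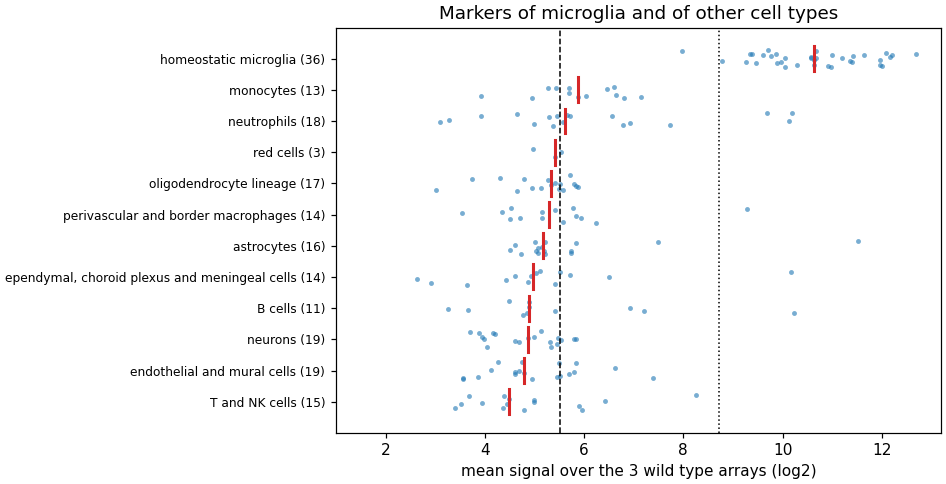
Mean log2 signal over the 3 wild type arrays (x axis) of each marker gene (points) by list (rows, with the number of genes measured); red bars are list medians, the dashed line is the ceiling at 5.52 and the dotted line the edge of the highest 5% at 8.73. Homeostatic microglia genes lie far to the right (median 10.64), and the lists of other cell types have medians between 4.48 and 5.88 with single genes far to the right.

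The highest protein-coding genes served antigen presentation, lysosomal proteolysis, respiration and microglial sensing. B2m, the light chain of MHC class I molecules, was the highest at 12.72, 12.72 and 12.76. Cst3, a secreted inhibitor of cysteine cathepsins, followed at 12.65, 12.69 and 12.73. The lysosomal proteases Ctsd and Ctss stood at 12.17 and 12.16 on average, and the legumain gene Lgmn at 11.97. Hspa8, the constitutive chaperone of the cytosol, stood at 12.24, and the tetraspanin Cd81 at 12.23. Mitochondrial DNA gave 7 of the 25 highest protein-coding genes, led by ND4, a subunit of respiratory complex I, at 12.35, 12.35 and 12.42. The adaptor Tyrobp, through which Trem2 signals, stood at 11.96, the selectin ligand Selplg at 11.97 and the complement subunit C1qb at 11.82. Of the 24 neighbouring pairs in this ranking of 25, 18 differed by less than the larger SD of the pair, so the order within it is mostly not resolved. Vmn1r233, a vomeronasal receptor gene, closed the 25 at 11.71, 11.79 and 11.88, and it was the highest of 15 sensory receptor genes above the stricter ceiling; the next of them, Vmn1r159, was at 7.96. Averaged over its probe sets Vmn1r233 was at 7.45, and so the brightest probe set alone placed it here. Of the other genes among the 25, Hspa8 moved to 11.17, Tpt1 from 11.98 to 10.66 and Rplp1 from 11.97 to 9.61 when their probe sets were averaged. In the RefSeq gene order 1 gene lies between Vmn1r233 and Ppp2r1a, a phosphatase subunit. Whether the probes of Vmn1r233 pick up other transcripts was not tested. Of the transcripts that code for no protein, Rn7sk, which restrains transcription elongation, stood at 12.69 and the nuclear RNA Malat1 at 12.11.

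**Figure D3:**
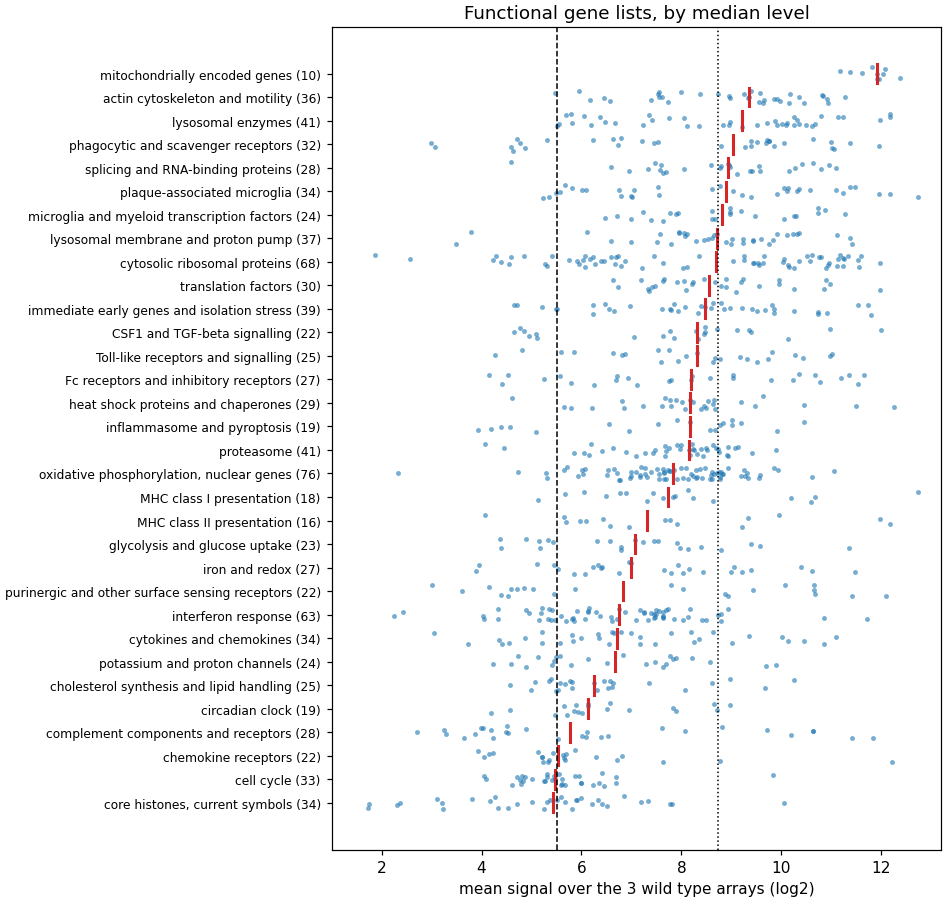
Mean log2 signal over the 3 wild type arrays (x axis) of the members (points) of each functional gene list (rows, ordered by median, with the number of genes measured); red bars are medians, the dashed line is the ceiling at 5.52 and the dotted line the edge of the highest 5% at 8.73. Medians run from 11.91 for mitochondrially encoded genes down to 5.44 for core histones.

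Receptor families of microglia differed in how many of their members were high. Among the purinergic and other sensing receptors, 9 of 22 lay in the highest 5%, led by P2ry12, by P2ry13 (11.41) and by P2ry6 (10.64), which responds to UDP; 10 of the 22, P2ry1 (4.16) and P2rx3 (4.58) among them, were below the ceiling. Chemokine receptors had a median of 5.53. Cx3cr1 and the chemerin receptor Cmklr1 (8.78) were the 2 in the highest 5%, and Ccr2, the receptor that brings monocytes into tissue, stood at 6.81. Phagocytic and scavenger receptors had a median of 9.03 with 17 of 32 in the highest 5%. Among them Mertk, a receptor for phosphatidylserine bridges, stood at 11.00, Trem2 at 10.08, 10.05 and 10.03, and the microglial integrin subunit Itgb5 at 11.05. In the same list the scavenger receptors Msr1 (4.62), Marco (4.87) and Cd36 (4.59) lay below the ceiling. Fc and inhibitory receptors had a median of 8.19, with the lectins Siglech (11.65) and Cd33 (11.19) and the signalling chain Fcer1g (11.54) at the top. Complement was split by role. The initiator subunits C1qa (11.41), C1qb and C1qc (10.64) and the receptor chains Itgam (10.63) and C3ar1 (10.20) were in the highest 5%, while the terminal components C6, C7, C8a, C9 and Hc lay between 3.66 and 4.89. Of the Toll-like receptors, the nucleic acid sensors Tlr7 (10.26), Tlr13 (9.81) and Tlr3 (9.72) were the highest, with Tlr8 at 4.28 and Tlr11 at 4.80.

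Transcription factors of microglia and myeloid cells were high. All 24 measured genes of that list lay above the ceiling, 12 of them in the highest 5%, with a median of 8.81. Mef2a read 11.24, 11.34 and 11.24. Sall1, which keeps microglia distinct from other macrophages, read 10.31, 10.30 and 10.27. Spi1, which encodes PU.1, read 8.67, 8.67 and 8.64, just under the edge of the highest 5%. Maf, another of the highest, was less even at 10.92, 10.84 and 10.47. Klf4 read 6.25, 6.77 and 6.39 and was the 1 member in the largest 5% of SDs, a share like that of all genes. Of the upstream signals, Csf1r and the TGF-beta receptor Tgfbr1 (10.97) were high, while the ligand Il34, which neurons make, was at 4.77 and Tgfb2 at 4.96. Tgfb1 itself stood at 9.34.

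Lysosomal, cytoskeletal and RNA processing genes had higher medians than the nuclear genes of respiration and than glycolysis, while the genes of mitochondrial DNA stood above them all. Of 41 lysosomal enzymes 40 lay above the ceiling and 24 in the highest 5%, with a median of 9.21, and of 37 lysosomal membrane and proton pump genes 18 lay in the highest 5%. Actin cytoskeleton genes had a median of 9.34, with Rhoa (11.27) and Rac1 (10.93), GTPases that steer cell shape, at the top. Splicing and RNA-binding proteins had a median of 8.94, led by Srsf5 (11.09). The 10 measured mitochondrially encoded genes were all in the highest 5%, with a median of 11.91, whereas the 76 nuclear genes of oxidative phosphorylation had a median of 7.82. Glycolysis genes had a median of 7.07 with Gapdh at 11.35 and Slc2a5, the fructose carrier GLUT5, at 9.39. Cholesterol synthesis and lipid handling had a median of 6.24, in which the sterol carrier Npc2 (10.25) and the exporter Abca1 (9.68) stood high. Apoe, the apolipoprotein, read 5.50, 5.79 and 5.42, at the ceiling. Cell cycle genes had a median of 5.47, like the 5.46 of all genes. Of 33 measured 16 (48.5%) lay above the ceiling, where 48.6% of all genes lay. Mki67, the usual mark of proliferation, stood at 5.66. Pcna, a clamp for DNA polymerases that also serves repair, was the 1 member in the highest 5%, at 9.69, 9.90 and 9.92.

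Early response genes were high in the sorted wild type cells. Of 39 immediate early and isolation stress genes 34 lay above the ceiling and 17 in the highest 5%, with a median of 8.47. Zfp36, an RNA-binding protein that shortens the life of cytokine mRNAs, stood at 11.79, Btg2 at 11.73, Jun at 10.92 and Egr1 at 10.73. The chemokine genes Ccl3, at 11.17, 11.19 and 10.94, and Ccl12, at 10.91, 10.95 and 10.72, and the cytokine gene Il1a, at 10.68, 10.41 and 10.26, were high, while Il1b stood at 6.55 and Il6 at 7.17. Of the interferon genes themselves, Ifnb1 at 3.06 and Ifng at 4.42 were below the ceiling. The 12 Ifna genes had a median of 4.73. Of them 5 (41.7%) lay above the ceiling, where 48.6% of all genes lay, with Ifna4 the highest at 7.72. What part of these levels arose during perfusion, dissociation and sorting was not tested.

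When the 229 families of at least 10 protein-coding genes with a common symbol stem were ranked by median, those of the SR splicing factors (Srsf, 8.85), the Toll-like receptors (Tlr, 8.65) and the large ribosomal subunit (Rpl, 8.54) came first. The families at the other end were Skint (2.48), which acts in the selection of skin T cells, Vmn (2.64), Ugt (2.64), the exocrine peptides Esp (2.68) and the secretoglobins Scgb (2.75). Prolactins (Prl, 3.14) and pregnancy-specific glycoproteins (Psg, 3.01) had 0 members above the ceiling, of 20 and 13 measured. Families were formed after the levels had been seen.

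The 3 arrays were close to each other. The median SD of a gene over the arrays was 0.086 above the ceiling and 0.068 in the highest 5%. Array medians over all probe sets lay between 5.36 and 5.40, but the normalization of the deposited values (RMA) brings them together by design. A range of at least 1 between the highest and the lowest array, a 2-fold difference in signal, was met by 190 of all genes (0.857%), of which 166 lay below the ceiling. Above the ceiling 24 of 10773 genes (0.223%) met it, 21 of them protein-coding, and these are called variable below. Replicate 1 decided most of them: without it the count was 2, without replicate 3 it was 10 and without replicate 2 it was 18. With every array required to lie above the ceiling 18 of the 24 stayed, without Ddit4, Ifit2, Oas1g, Olfr99, Rhox6 and Rxfp1. With the stricter ceiling 16 stayed, and Ifit2, Oas1g and Oasl2 were not among them. The largest 5% of SDs (539 genes, 5%) began at 0.251. The 36 homeostatic genes had a median SD of 0.058 with 0 members in the largest 5% and 0 variable genes. Of the genes above the ceiling 0.223% are variable. SDs fall with level, and 35 of the 36 lie in the highest 5% by level. Of those 1109 genes 23 (2.07%) were in the largest 5% of SDs and 4 were variable, so 0 of 36 is near the share at that level. The interferon response list held 6 variable genes and the neutrophil markers 4. With 3 arrays no test was made, and 439 genes had exactly the same value on all 3 arrays, Hpgds (10.57) and Numb (8.92) among them, so the lowest spreads cannot be ordered.

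**Figure D4:**
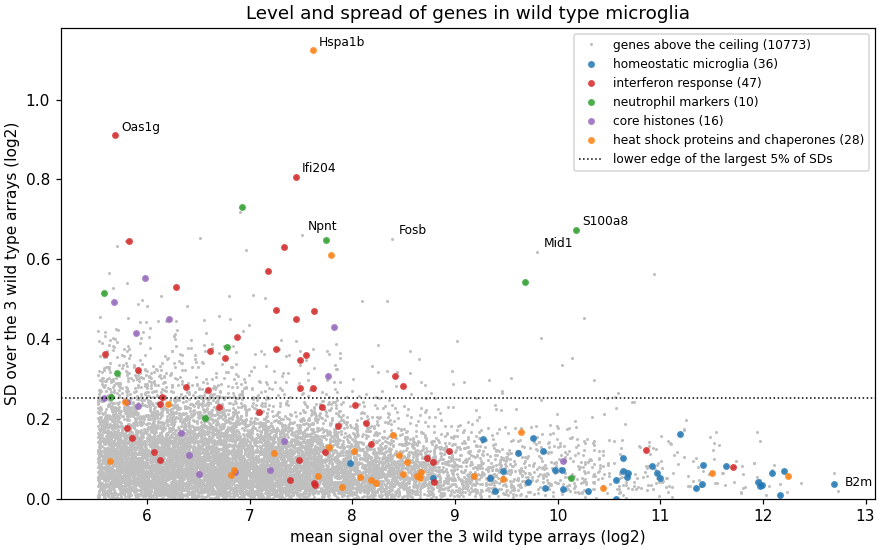
SD of each gene over the 3 wild type arrays (y axis, log2) against its mean signal (x axis, log2) for the 10773 genes above the ceiling; coloured points mark the members of 5 lists, and the dotted line is the edge of the largest 5% of SDs at 0.251. Homeostatic microglia genes lie at the lower right, below the line, and interferon, neutrophil and histone genes reach far above it.

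Of the functional lists, interferon response had the most members among the largest 5% of SDs, and most of them followed 1 order of the arrays. These genes are switched on by interferon through STAT factors and block viruses at many steps. Of 63 measured genes 47 lay above the ceiling, and 24 of these 47 were among the largest 5% of SDs, where 5% of all genes above the ceiling lie by definition. Ifi204, a DNA sensor of the Ifi200 cluster, read 8.21, 7.53 and 6.60. Oas2, an enzyme that activates RNase L, read 7.89, 7.46 and 6.65. Ifit2, which binds foreign RNA, read 6.46, 5.84 and 5.17, the last below the ceiling. In each of them replicate 1 was the highest and replicate 3 the lowest. Oas1g departed from that order, with 6.21 and 6.22 in replicates 1 and 2 and 4.63, below the ceiling, in replicate 3. The chemokine gene Cxcl10 read 7.37, 7.63 and 6.54, with replicate 2 the highest. Ifit3 went against the others at 7.35, 7.24 and 7.89, with replicate 3 the highest. Of the 47 genes, 35 were highest in replicate 1 and 41 lowest in replicate 3, against 5033 and 4604 of the 10773 genes above the ceiling. Averaged over the 47, the deviation from a gene's own mean was 0.22 in replicate 1, 0.03 in replicate 2 and -0.25 in replicate 3. Leaving out replicate 1 left 10 of 44 members in the largest 5% of SDs, leaving out replicate 3 left 14 of 49, and leaving out replicate 2 left 27 of 46. The highest members of the list varied less: Ly6e, a membrane protein that hinders viral entry, read 11.78, 11.72 and 11.62. Ifi204, Ifi209 and Oas1g belong to clusters of near-identical genes, so their probes may pick up neighbouring copies and the values are uncertain for the single gene.

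Neutrophil genes spread in the opposite order. The list holds markers of neutrophils, genes of granule and alarm proteins among them. S100a8, a calcium-binding alarm protein, read 9.41, 10.46 and 10.67. Its partner S100a9, the next gene on chromosome 3, read 9.08, 9.81 and 10.15. Camp, the cathelicidin gene, read 7.01, 7.93 and 8.27, and Ngp, another granule gene, 6.08, 7.27 and 7.41. Replicate 1 was the lowest for all 4, and replicate 3 the highest. Of 18 measured markers 10 lay above the ceiling and 8 of these were lowest in replicate 1, as were 2977 of the 10773 genes above the ceiling. Their mean deviations were -0.44, 0.14 and 0.29 in replicates 1, 2 and 3. Their spread lay between replicate 1 and the other arrays: 8 of the 10 were in the largest 5% of SDs, but 1 of 11 without replicate 1, against 6 of 9 without replicate 2 and 8 of 9 without replicate 3. Csf3r, the G-CSF receptor, was level at 10.17, 10.14 and 10.07. The granule enzymes Mpo (4.98), Elane (5.46) and Prtn3 (5.30) lay below the ceiling, as did Retnlg (4.65). Of 13 monocyte markers, Chil3 had the largest range, at 6.57, 7.42 and 7.46. In a sorted bulk sample more cells of a type and more RNA per cell cannot be told apart, and the part of such cells in the results was not tested.

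The heat shock pair and Fosb followed neither order. Hspa1b, an inducible heat shock protein, had the largest spread of all genes above the ceiling, at 8.55, 6.37 and 7.92. Its neighbour Hspa1a read 8.25, 7.10 and 8.03. Replicate 2 was the lowest for both, and without it neither was variable; the genes are near-identical copies, so their signals cannot be treated as independent. Hspa8, the constitutive member, read 12.18, 12.26 and 12.29. Fosb, a partner of Jun in AP-1, read 7.70, 8.99 and 8.49, and Fos 9.15, 9.59 and 9.47. Both were highest in replicate 2, where Hspa1b was lowest. Ddit4, an inhibitor of mTOR complex signalling under stress, read 5.07, 5.60 and 6.20, lowest in replicate 1 and highest in replicate 3 as the neutrophil genes were.

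The list named core histones, whose current symbols were listed after the data had been seen, had a median SD of 0.237 above the ceiling. Of its 16 genes there, 7 were in the largest 5% of SDs. H1f2, a linker and not a core histone, read 8.30, 7.69 and 7.47. H2bc18 read 6.62, 5.70 and 5.63, and H4c9 6.24, 5.38 and 5.40. Of the 16 genes 14 were highest in replicate 1, and without that array 3 of 14 were in the largest 5% of SDs. Most histone genes have close copies and mRNAs without a poly(A) tail, so single members are uncertain. Ribosomal proteins leaned the same way by less: 43 of 57 genes were highest in replicate 1, with a mean deviation of 0.10 there and -0.08 in replicate 3. Replicate 1 was the highest array for 253 of the 539 genes of largest SD and the lowest for 201; among all 10773 genes above the ceiling it was the highest for 5033 and the lowest for 2977.

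A few variable genes belonged to no list. Npnt, a matrix protein, read 8.26, 7.03 and 7.22, and the relaxin receptor Rxfp1 6.50, 5.66 and 5.23. Mid1, a ubiquitin ligase gene of the X chromosome, read 9.20, 9.78 and 10.43, and Erdr1, with 3 genes between them in the RefSeq order, 10.33, 11.04 and 11.44. Both lie next to the pseudoautosomal boundary, a region that is repetitive and hard to assign. The homeobox gene Rhox6 read 5.35, 6.40 and 6.20, and Get3, which inserts tail-anchored membrane proteins, 7.48, 7.13 and 6.48.

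**Figure D5:**
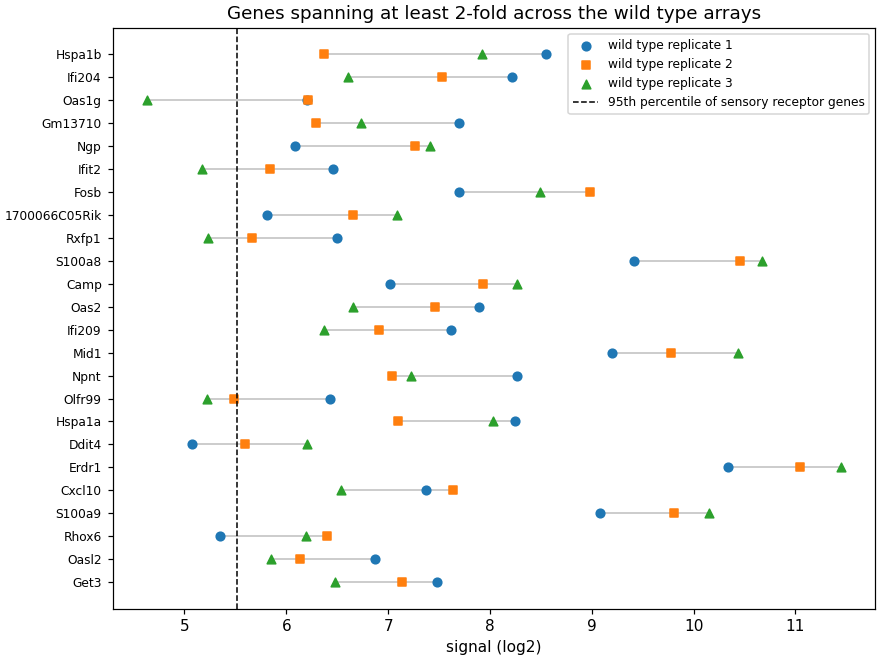
Log2 signal (x axis) of the 24 variable genes (rows, ordered by range) in wild type replicates 1, 2 and 3 (circles, squares and triangles); the dashed line is the ceiling at 5.52. Interferon genes run from replicate 3 at the left to replicates 1 and 2 at the right, S100a8, S100a9, Camp and Ngp run the other way, and Hspa1b spans the most, 2.18.

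The same genes were then read within the other groups, which the ranking had not used. Inside the FAD arrays 54 genes above the wild type ceiling (0.501%) had a range of at least 1, and inside the FAD DKO arrays 56 (0.52%). Of the 24 variable genes 8 (33.3%) met it inside FAD and 8 (33.3%) inside FAD DKO, 4 in both and 12 in neither. Hspa1b varied in each group, with ranges of 3.21 in FAD and 1.76 in FAD DKO, and so did Ifi204, with 2.50 and 1.61. The neutrophil genes were even in FAD, where the range of S100a8 was 0.07, but not in FAD DKO, where it was 2.76 and that of Camp 3.33. Npnt, with ranges of 0.18 and 0.21, and Ifit2, with 0.13 in each, did not meet the rule in either of them; a difference in spread between groups was not tested. Of the 539 genes of largest wild type SD, 113 (21%) were also in the largest 5% by SD in FAD and 129 (23.9%) in FAD DKO.

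Promoter sequences are shown for 8 genes: interferon response genes (Oas1g and Cxcl10, which are variable, and Ifit3, which is in the largest 5% of SDs), high and even genes, a variable neutrophil gene and the heat shock pair. They are RefSeq sequences of build GRCm38.p6 that end 1 base before the annotated start. Windows of 250 bases upstream were searched on both strands for GAAANNGAA, the core of the interferon-stimulated response element, for GAGGAAGT, a core that PU.1 binds, and for GAANNTTC, a pair of heat shock element units that was added after the spread had been seen; N is any base, and a base may belong to more than one match. Capitals mark matches to the first motif in Oas1g (chr5:120887614-120887813, minus strand), Cxcl10 (chr5:92348890-92349102, minus), Ifit3 (chr19:34583329-34583528, plus), B2m (chr2:122147487-122147686, plus) and Ctss (chr3:95526586-95526785, plus). They mark the PU.1 core in S100a8 (chr3:90668871-90669070, plus), and the heat shock pair in Hspa1a (chr17:34972157-34972356, minus) and Hspa1b (chr17:34959239-34959438, minus). The matches in Ifit3 and S100a8 lie on the strand opposite to the one printed.
Oas1g: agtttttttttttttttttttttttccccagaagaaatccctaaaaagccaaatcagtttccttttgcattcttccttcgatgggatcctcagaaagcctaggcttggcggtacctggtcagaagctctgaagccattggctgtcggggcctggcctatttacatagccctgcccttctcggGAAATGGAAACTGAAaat
Cxcl10: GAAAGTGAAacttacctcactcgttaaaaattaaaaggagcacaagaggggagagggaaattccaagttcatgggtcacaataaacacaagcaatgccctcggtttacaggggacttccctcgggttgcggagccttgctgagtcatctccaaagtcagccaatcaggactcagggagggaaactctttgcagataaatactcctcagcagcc
Ifit3: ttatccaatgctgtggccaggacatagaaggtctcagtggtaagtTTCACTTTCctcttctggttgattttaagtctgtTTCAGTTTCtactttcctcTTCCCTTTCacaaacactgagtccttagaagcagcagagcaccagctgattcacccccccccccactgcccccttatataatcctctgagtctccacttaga
B2m: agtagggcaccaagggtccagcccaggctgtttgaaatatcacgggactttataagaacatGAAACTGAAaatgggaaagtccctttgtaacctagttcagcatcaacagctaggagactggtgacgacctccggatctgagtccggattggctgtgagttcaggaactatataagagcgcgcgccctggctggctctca
Ctss: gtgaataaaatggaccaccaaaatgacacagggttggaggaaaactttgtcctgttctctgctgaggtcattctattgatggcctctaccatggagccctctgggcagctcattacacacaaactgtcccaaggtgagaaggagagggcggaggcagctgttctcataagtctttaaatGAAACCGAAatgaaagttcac
S100a8: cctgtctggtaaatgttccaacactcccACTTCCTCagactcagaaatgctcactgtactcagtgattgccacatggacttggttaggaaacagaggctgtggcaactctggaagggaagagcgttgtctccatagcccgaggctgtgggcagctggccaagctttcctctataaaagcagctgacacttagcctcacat
Hspa1a: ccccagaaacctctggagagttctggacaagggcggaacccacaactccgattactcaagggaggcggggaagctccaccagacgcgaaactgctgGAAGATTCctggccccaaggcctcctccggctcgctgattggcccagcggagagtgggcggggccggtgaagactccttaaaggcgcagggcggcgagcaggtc
Hspa1b: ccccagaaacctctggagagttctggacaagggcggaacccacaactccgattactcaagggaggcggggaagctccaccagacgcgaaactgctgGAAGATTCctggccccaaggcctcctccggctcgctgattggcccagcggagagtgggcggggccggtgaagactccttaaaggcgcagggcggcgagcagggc
The interferon motif lay in 27 of 49 interferon response genes with a promoter in the table (55.1%), and in 7.97% of the 16990 array genes with one. Among the interferon genes in the largest 5% of SDs it was in 9 of 18 (50%). B2m and Ctss, which differed by at most 0.04 between the arrays, hold it as well as Oas1g and Cxcl10, which differed by 1.58 and 1.10. In the highest 5% by level the interferon motif lay in 57 of 857 genes with a promoter (6.65%). The PU.1 core lay in 41 of 857 genes of the highest 5% with a promoter (4.78%), in 2.67% of the array genes, and in 1 of 26 homeostatic genes (3.85%). Among neutrophil markers, the list of S100a8, it lay in 5 of 16 (31.2%). The heat shock pair lay in 8 of 25 heat shock and chaperone genes (32%) and in 7.02% of the array genes. It also lay in 5 of 26 homeostatic genes (19.2%). Upstream of Hspa1a and Hspa1b 247 of 250 bases were the same. A match describes letters in this window and shows no binding.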

How the data were processed

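Amplified RNA of sorted cells carried a biotin label on the arrays, per the labels' protocols. Each deposited value is the log2 signal of a probe set, which the authors derived with RMA, per the submitters' processing notes; RMA is a method that corrects background, normalizes quantiles and summarises probes, its version was not given in the sources used here, and detection calls were not used here. It sets the arrays to nearly 1 distribution, so a change common to all genes of an array cannot be seen.

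Of 41345 probe sets 23521 had 1 gene symbol, 1814 had several and 16010 were unnamed; 23328 of the named ones matched RefSeq (GRCm38.p6). For 1082 genes with several probe sets, the median gap between the sets was 0.886. Means, SDs and ranges over the 3 wild type arrays were computed with Python 3.11.15, numpy 2.4.6 and pandas 2.3.3, and figures drawn with matplotlib 3.10.9; the spread ranking was checked on simulated data. With 1 group there is no test, and 3 arrays limit the precision.

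The arrays, the gene lists and the rules were chosen with earlier results of these data known. The rule named the 25 protein-coding genes of highest level, the 25 of largest SD above the ceiling, the 10 of smallest SD in the highest 5%, and from each list up to 5 highest, 3 of largest range and 2 lowest members; unnamed gene models and small RNA genes were left out. The lists of core histones and of X-inactivation and Y-linked genes, and the families by symbol stem, were added after the values had been seen. Other genes named in the text, such as definers of a cell type or a role, were chosen after their values were seen, and the text uses a part of the named genes. Alternatives were other ceilings, averaging a gene's probe sets, quantile normalization of the wild type arrays, the brightest probe set over all 9 arrays, all arrays above the ceiling, the SD above its trend on level, and leaving out each array.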

Additional observations from a re-analysis of the deposited data

How the results depend on the processing

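The number of genes above the ceiling was 6163 with the 99th percentile in place of 10773 with the 95th, and ranged from 10613 to 10945 when 1 array was left out. With keratins and defensins as the low reference in place of the sensory receptors, the ceiling was 6.18 and the number 8156, so it also depends on the reference family. The number of variable genes ranged from 2 to 18 when 1 array was left out, against 24 with all 3, and from 18 to 25 under the other settings planned for it. It was 16 with the 99th percentile as the ceiling and 18 with keratins and defensins as the low reference. Of the 100 genes of largest SD, between 34 and 69 were shared when 1 array was left out, and between 91 and 100 under the other 3 settings. Leaving out an array leaves a pair of arrays for each range, and the 99th percentile is a higher ceiling by construction; why replicate 1 stood apart was not tested. Of 58 list medians, 14 moved by more than the spread between arrays with the mean of probe sets, by up to -1.15, and 1 with quantile normalization. Leaving out replicate 1, 2 or 3 moved 8, 6 and 6 of them, by at most 0.18. Averaging probe sets moved 6 of the 60 genes ranked by level, spread or evenness, the most for Vmn1r233, by -4.35. No paired analysis was possible because a single group was described and no test was made.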

Other observations

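Some genes of high signal stood apart from what their names are known for. Odf1, a protein of the sperm tail, was at 11.03 and Cnbd2, another gene known from testis, at 11.01, both among the highest 5% of genes. Crybb1, a lens crystallin that is also a microglial marker, was at 9.27, and Upk1b, a uroplakin of bladder, at 9.61. Of the microRNA genes, 14 of 472 lay in the highest 5%, with Mir5099 at 11.94 and Mir449b at 11.49, while the median of that family was 4.31. Of the 73 small nucleolar RNA genes 8 lay in the highest 5%, with Snord118 at 10.33. Among genes on no list, Itm2b (11.78), Rgs2 (11.72) and Grn (11.57), which encodes the lysosomal protein progranulin, were among the highest.

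Of the families formed by symbol stem, Ifi had the largest median SD above the ceiling, 0.31 over 6 genes, followed by Ifna at 0.21 over 5 and Syt at 0.21 over 5. Lgals3bp, a secreted glycoprotein on none of the lists, read 10.72, 10.21 and 9.82 in replicates 1, 2 and 3. The order of replicates 1, 2 and 3 from high to low was found in 178 of the 539 genes of largest SD (33.0%) and in 25.7% of the genes above the ceiling. Exact repeats of a value on all 3 arrays made up 1.98% of genes, and 1 gene had the same value on all 9 arrays.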
